A study of Mus musculus with 18 samples.

Results

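Open chromatin at axon guidance genes was examined in the mouse retina, for 70 of 21938 protein-coding genes of the GENCODE M21 annotation. The members were taken by symbol: the ephrins (Efna, Efnb) and their Eph receptors (Epha, Ephb), the semaphorins (Sema) with the plexins (Plxn) and neuropilins (Nrp1 and Nrp2), the Slits with the Robo receptors, and the netrins (Ntn) with the Unc5 receptors. The symbol pattern also took Unc50 and Unc5cl, which are not guidance receptors and are counted among the 70. Each gene was given a window from 10 kb upstream of its start to its end, and 352 of the 73567 consensus regions of the series fell in these windows, none of them in the windows of 2 members. A consensus region is a stretch of the genome (build mm10) where the peaks of at least 2 of the 18 libraries overlap, and a library calls a region when its own peak list has a peak there.

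Each of the 18 ATAC-seq libraries came from bulk retina of WT mice and gave 1 list of peaks, and the libraries form 6 groups of 3. In ATAC-seq a transposase cuts accessible DNA, and peaks mark where the cuts pile up. In mice aged 3 months (3mo) or 18 months (18mo), the intraocular pressure (IOP) of 1 eye was kept at 30 mmHg during 1 hour, the opposite eye served as the contralateral control, and both retinas were collected on day 2 per the labels, while the study's text places the collection a day later. The third group at each age came from untreated mice. The treatment text shared by all libraries also describes the drug dasatinib and its vehicle, and the labels assign none of the libraries to a drug. The study's methods describe the retina of each eye as 1 preparation, and the labels do not say which mice gave which libraries. The series asked how ageing and a short pressure stress change accessible chromatin in the retina. In bulk retina, fewer cells of a type and less accessible DNA per cell cannot be told apart. A region that was not called may still have been open under the threshold of the peak caller.

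Guidance molecules steer growing axons by attraction and repulsion, and many stay expressed in adult neurons, glia and vessels. In the developing retina, graded EphA receptors and ephrin-A ligands order the axons of ganglion cells along the map in the brain, and EphB receptors with ephrin-B ligands guide them at the optic disc and chiasm. Slit proteins and their Robo receptors keep ganglion cell axons within their layer, netrin-1 draws them into the optic nerve, and transmembrane semaphorins with their plexin receptors sort the dendrites of amacrine and ganglion cells into layers.

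The lists held between 36011 peaks (18mo IOP replicate 3) and 66160 peaks (3mo contralateral replicate 2). The labelled tissue carried the marks of retina: the promoters of the rod genes Nrl and Crx were called in all 18 libraries. Of 5 ganglion cell genes, the promoters of Pou4f1 and Thy1 were called in all 18, that of Rbpms in 14 and that of Isl2 in 13. The Pou4f2 promoter was called in 4 libraries, all 3 of 18mo contralateral and 1 of 18mo IOP. The promoters of 4 of 4 endothelial and 4 of 4 blood genes were called in none. Those of 2 of 3 pericyte, 2 of 4 lens, 1 of 3 melanocyte, 1 of 4 pigment epithelium and 1 of 5 microglia genes were called in some libraries. Of 4 bipolar and 4 Müller glia genes, 1 and 2 had promoters called in all libraries, and the others in some. The untreated libraries had narrower peaks, with a median width of 161 to 192 bp against 264 to 395 bp in the 12 contralateral and IOP libraries, and the shortest peak in a list was 79 to 89 bp against 114 to 157 bp. Kind of control and peak width cannot be told apart.

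The sequences below are mm10 reference sequence around the summits of 7 of the 16 member regions that separated groups of libraries in a comparison described further on, chosen for a high mean place within the peak lists. Each is 150 bases of the plus strand, and capitals mark letters of the motifs searched on either strand: TAATCC (Crx and Otx2), TAATTA (other homeodomain proteins), TGANTCA (AP-1), TTCNNNGAA (STAT), TGCTGA (NRL and MAF), CAGATG (bHLH) and CNAGGNGGC (CTCF). A match is a run of letters and no evidence that a factor binds.
Sema7a intron, chr9:57944732-57944881: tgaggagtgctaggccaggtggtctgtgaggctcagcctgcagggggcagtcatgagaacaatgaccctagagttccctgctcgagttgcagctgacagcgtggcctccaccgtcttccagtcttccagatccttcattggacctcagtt
Plxna4 intron, chr6:32377250-32377399: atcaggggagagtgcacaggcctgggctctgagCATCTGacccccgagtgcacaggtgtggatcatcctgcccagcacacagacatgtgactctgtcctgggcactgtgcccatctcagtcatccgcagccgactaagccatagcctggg
Sema5a intron, chr15:32437737-32437886: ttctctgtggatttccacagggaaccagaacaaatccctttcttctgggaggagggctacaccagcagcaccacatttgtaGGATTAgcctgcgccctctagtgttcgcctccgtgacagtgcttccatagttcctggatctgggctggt
Sema4d intron, chr13:51761304-51761453: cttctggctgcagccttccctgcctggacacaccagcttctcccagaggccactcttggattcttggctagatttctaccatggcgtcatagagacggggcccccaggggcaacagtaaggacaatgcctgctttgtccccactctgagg
Nrp1 intron, chr8:128363357-128363506: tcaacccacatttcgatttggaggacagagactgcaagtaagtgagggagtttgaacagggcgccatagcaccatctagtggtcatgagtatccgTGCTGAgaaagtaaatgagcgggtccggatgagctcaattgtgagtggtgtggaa
Epha1 upstream, chr6:42376658-42376807: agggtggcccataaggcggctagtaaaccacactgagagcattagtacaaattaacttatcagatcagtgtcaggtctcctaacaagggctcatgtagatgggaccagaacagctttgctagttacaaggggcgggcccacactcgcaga
Robo3 intron, chr9:37432162-37432311: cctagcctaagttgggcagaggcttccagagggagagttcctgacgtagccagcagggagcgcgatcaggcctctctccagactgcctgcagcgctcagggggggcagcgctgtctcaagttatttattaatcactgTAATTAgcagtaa

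The Nrp1 region holds an NRL and MAF match, the Plxna4 region a bHLH match, the Sema5a region a Crx and Otx2 match and the Robo3 region a homeodomain match. The regions at Sema7a, Sema4d and Epha1 hold no match in these 150 bases. Over all 352 member regions, searched 100 bases to each side of the summit (200 bases), CAGATG stood in 81 (23.0%) beside 18.6% of all 73449 regions on the main chromosomes. TAATTA stood in 7.67% beside 4.14%, TAATCC in 10.2% beside 15.4% and TGCTGA in 13.9% beside 18.1%. The other shares lay closer to those of all regions, with TGANTCA at 5.11% beside 6.60%, TTCNNNGAA at 4.55% beside 4.40% and CNAGGNGGC at 11.1% beside 9.07%. CAGATG was in 27.6% of the 286 member regions outside promoters and in 3.03% of the 66 in promoters. This split was not counted over all regions, so the contrast is not known to be particular to members. The median GC content of the same 200 bases was 56.5% in member regions and 52.5% in all regions. These shares are descriptions and were not tested.

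The promoter (1 kb upstream to 100 bp downstream of an annotated start) was called in all 18 libraries for 37 of the 70 members (52.9%, against 51.8% of all genes), in 1 to 17 libraries for 25 members (35.7% against 12.4%) and in no library for 8 members (11.4% against 35.8%). Members thus had promoters called in some libraries and not in others more often than genes at large, a description that was not tested. The sequences of 3 promoters show the range, as RefSeq gives them for the plus strand of GRCm38.p6 from 250 bases before to 50 bases after a start, with CG dinucleotides in capitals. RefSeq entries were found for 61 of the 70 members.
Ephb3 promoter, chr16:21204545-21204844: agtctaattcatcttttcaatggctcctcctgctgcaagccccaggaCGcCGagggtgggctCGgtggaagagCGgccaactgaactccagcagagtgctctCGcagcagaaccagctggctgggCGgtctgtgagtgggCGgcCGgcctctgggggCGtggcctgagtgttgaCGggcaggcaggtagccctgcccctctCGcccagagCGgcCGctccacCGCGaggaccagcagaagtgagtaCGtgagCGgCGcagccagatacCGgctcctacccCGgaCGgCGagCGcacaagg
Sema4g promoter, chr19:44989094-44989393: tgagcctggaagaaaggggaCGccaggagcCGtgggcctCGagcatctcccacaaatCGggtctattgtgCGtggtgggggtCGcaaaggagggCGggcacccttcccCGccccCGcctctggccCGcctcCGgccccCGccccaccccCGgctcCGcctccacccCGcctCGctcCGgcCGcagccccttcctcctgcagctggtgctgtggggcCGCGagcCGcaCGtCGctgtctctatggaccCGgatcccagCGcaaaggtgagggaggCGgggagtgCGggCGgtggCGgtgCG
Slit3 promoter, chr11:35121206-35121505: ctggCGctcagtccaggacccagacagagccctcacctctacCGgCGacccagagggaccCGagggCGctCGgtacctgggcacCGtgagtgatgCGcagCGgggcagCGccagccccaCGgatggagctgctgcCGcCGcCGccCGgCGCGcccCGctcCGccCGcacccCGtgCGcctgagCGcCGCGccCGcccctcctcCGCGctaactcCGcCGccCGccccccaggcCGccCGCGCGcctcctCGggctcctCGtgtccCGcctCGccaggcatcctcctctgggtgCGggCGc

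Ephb3, a receptor for ephrin-B ligands, had the promoter with the highest rank of all member regions: it was called in all 18 libraries at a mean percentile of 98.0, where a percentile is the place of the peak's −log10 q-value within its own list. The promoter of Sema4g, a transmembrane semaphorin, was called in 11 libraries: in 3, 3 and 0 of 3 contralateral, IOP and untreated libraries at 3mo, and in 2, 2 and 1 at 18mo. Slit3 had no promoter call in any library although the window printed holds 41 CG dinucleotides, against 23 for Ephb3 and 30 for Sema4g. The RefSeq starts of these windows lie downstream of the GENCODE gene starts. At the GENCODE starts the counts were 25 for Slit3, 21 for Ephb3 and 14 for Sema4g. Around the GENCODE start of each gene, the median ratio of observed to expected CG was 0.733 for the 37 members called in every library, 0.572 for the 25 called in some and 0.348 for the 8 called in none. The same medians over all genes were 0.766, 0.486 and 0.176.

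**Figure D1:**
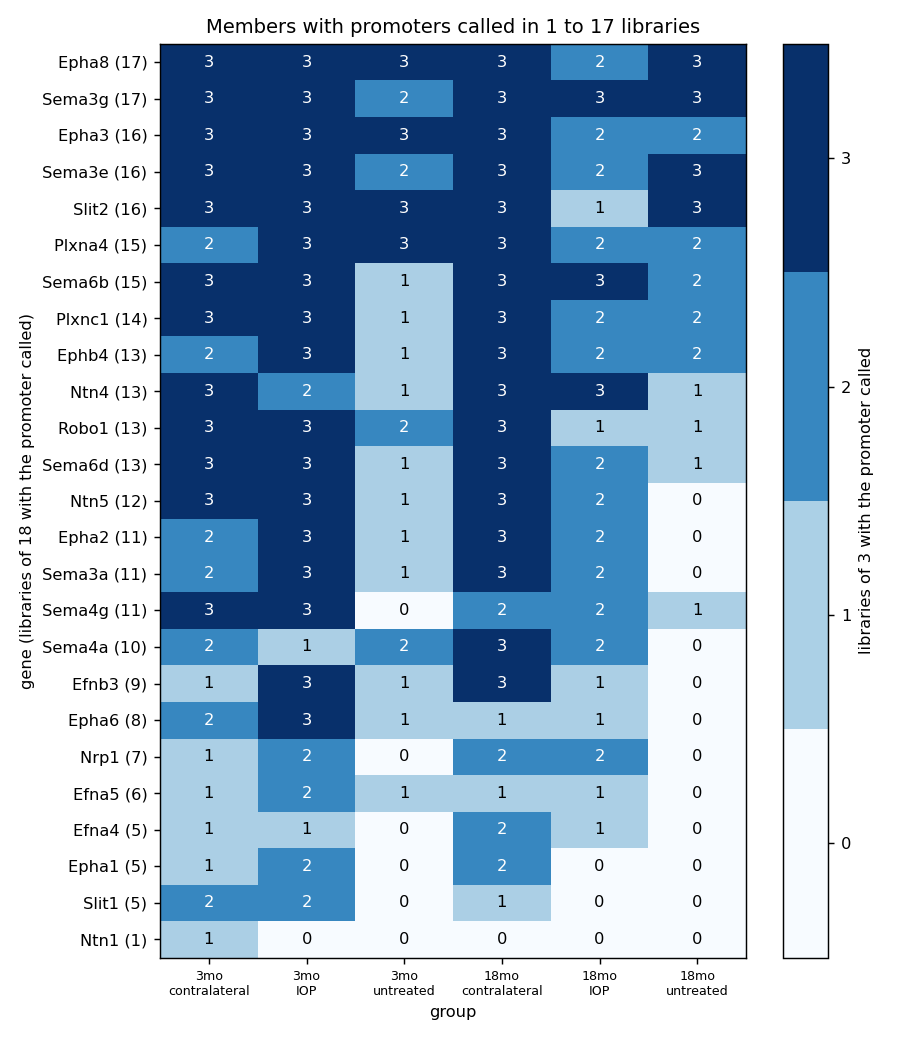
Each row is 1 of the 25 members whose promoter was called in 1 to 17 libraries, each column is 1 group of 3 libraries, and the number and shade give how many of the 3 called it. The 18mo untreated column is the palest, and the 3mo IOP and 18mo contralateral columns are the darkest.

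Among these 25 promoters, the mean share called per library was 82.7% ± 2.31 in 18mo contralateral and 34.7% ± 4.62 in 18mo untreated libraries (SD, n = 3 each). Over the 2730 genes of the same kind in the whole series these shares were 61.4% ± 6.21 and 37.0% ± 2.17. At 3mo the shares of the 25 were 74.7% ± 20.1 in contralateral, 84.0% ± 10.6 in IOP and 41.3% ± 23.4 in untreated libraries, and in 18mo IOP libraries 54.7% ± 23.4. Those of the 2730 genes were 54.7% ± 19.5, 55.7% ± 5.50, 38.7% ± 13.6 and 45.1% ± 14.8 in the same order. The promoters of Ntn5, Epha2, Sema3a, Sema4a and Efnb3 were called in all 3 contralateral and in no untreated library at 18mo. The share of all gene promoters with this pattern was not counted, so it is not known to be particular to members. Counted over all 70 members, 57 to 58 promoters were called in the 18mo contralateral libraries and 45 to 47 in the 18mo untreated libraries, so these groups did not overlap. Over all genes they did not overlap either, with promoters called for 58.5% to 60.0% of genes in the 18mo contralateral and 56.0% to 56.5% in the 18mo untreated libraries. The 3mo contralateral libraries called 51 to 61 and the 3mo untreated libraries 43 to 54, which overlap. The narrower peaks of the untreated libraries moved with these counts, and their part in them was not tested.

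Members had more regions per gene than genes at large, with a median of 4 against 2, and longer windows, with a median of 55.1 against 27.4 kb. Pooled over windows there were 3.05 regions per 100 kb beside 4.85 for all genes, whereas the median per gene was 6.39 in members and 5.19 in all genes. Introns held 63.4% of member regions (47.5% of all regions), promoters 18.8% (19.4%), exons 9.94% (6.50%) and intergenic sequence 7.95% (26.6%). Of the 352 regions, 98 (27.8%) were called in all 18 libraries, against 33.6% of all regions and 37.6% of regions in the windows of protein-coding genes. A further 120 merged regions in member windows had a peak in 1 library only and were left out.

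**Figure D2:**
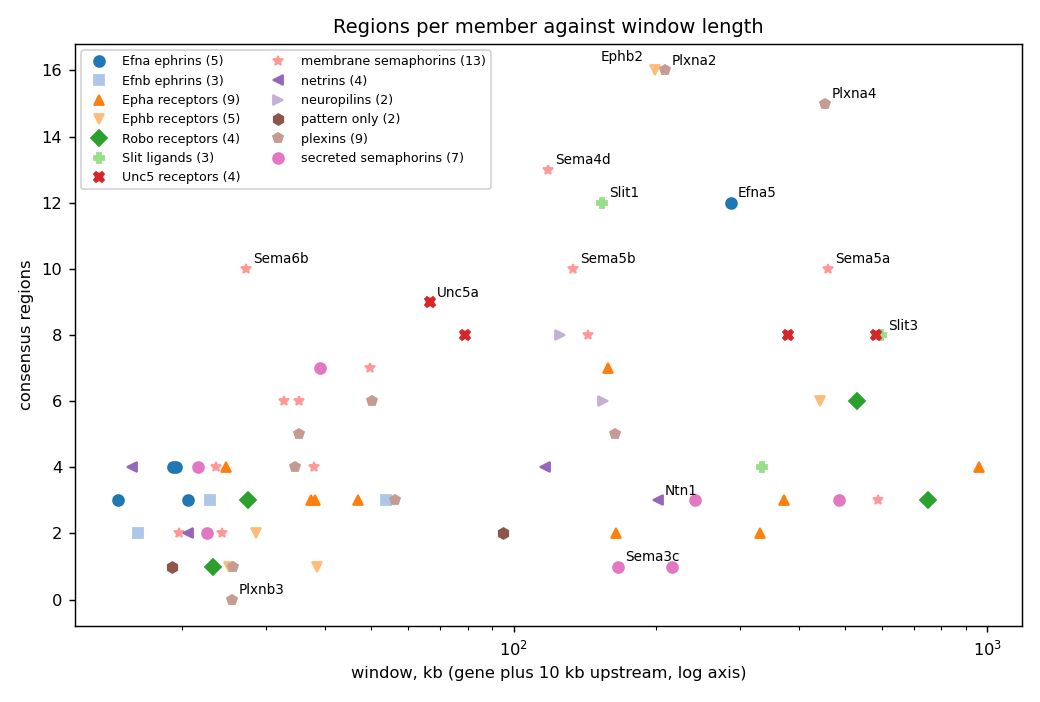
Consensus regions per member (vertical axis) against the length of the gene plus 10 kb upstream in kb (log axis), with 1 symbol per family and the number of genes in brackets. Ephb2 and Plxna2 have 16 regions each, while Sema3c and Ntn1 have 1 and 3 in windows longer than the median, and Plxnb3 has none.

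The ephrins and Eph receptors had 91 regions in all, counted over 22 genes. EphA receptors had 31 regions in 9 genes and EphB receptors 26 in 5 genes, which is 1.45 and 3.55 regions per 100 kb. Ephb2, a receptor that guides ganglion cell axons towards the optic disc, had 16 regions, more than any other member but Plxna2, and 6 of them were called in all 18 libraries. An intron region 80382 bp into Ephb2 ranked above its promoter, with a mean percentile of 83.5 against 71.1. Ephb3 had 2 regions, both called everywhere, and Ephb1, which turns axons to the same side at the chiasm, had 6 regions with the promoter called in all libraries. Ephb6 and Ephb4 had 1 region each, called in 18 and 13 libraries.

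Of the EphA receptors with graded roles in the map, Epha4 had 7 regions and Epha5 3, both with the promoter called in every library, while Epha6 had its promoter called in 8 libraries and 4 regions in the longest window of the list. Epha7 had 2 regions, both called in all 18 libraries, 1 of them at the promoter of another gene. The windows of Efna2, Efna4, Efnb2, Epha4, Nrp2, Ntn3, Plxna2 and Sema5a also held 1 region each at the promoter of another gene. Epha10 had 3 regions called in every library, 1 of them at the promoter of another gene. No peak overlapped its own promoter, and its nearest region has its summit 786 bp downstream of the start. Epha3, Epha8, Epha2 and Epha1 had promoter calls in 16, 17, 11 and 5 libraries.

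Among the ligands, Efna5, which repels ganglion cell axons in the target, had 12 regions and its promoter called in 6 libraries, whereas a region 1719 bp upstream of its start was called in all 18. Efna2 had 3 regions and the promoter in all 18, as did Efna1 and Efna3 with 4 regions each. Efna4 had its promoter called in 5 libraries. Efnb1 and Efnb2, the transmembrane ligands, had 3 regions each with the promoter in every library, and Efnb3 had 2 regions with the promoter in 9 libraries.

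The semaphorins, plexins and neuropilins had 175 regions. The 13 membrane semaphorins had 85 regions (5.02 per 100 kb) with 9 promoters called in all libraries, and the 7 secreted semaphorins had 21 (1.76 per 100 kb) with 2 such promoters, those of Sema3d and Sema3f. Sema4d, a ligand of plexin-B1 also known from immune cells, had 13 regions. Sema5a and Sema5b, which keep neurites in the inner retina, had 10 regions each with the promoter in every library, and Sema6b had 10 regions with none called in all 18. Sema6a, the ligand of Plxna4 and Plxna2 in the sorting of amacrine and ganglion cell dendrites, had 8 regions. Sema7a, a membrane-anchored ligand of plexin-C1, had 6 regions, 3 of them called everywhere, and Sema6d had 3 with the promoter in 13 libraries.

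The promoters of Sema6c and Sema4f ranked at mean percentiles of 93.3 and 93.1. Sema3b had no promoter call, yet a region 3582 bp upstream of its start ranked at 92.8 and was called in all 18 libraries. Sema3e, the ligand of plexin-D1, had 3 regions and its promoter in 16 libraries, and Sema3a, which acts through neuropilin-1, 3 regions and its promoter in 11. Sema3c had 1 region, called in 9 libraries. Sema4a, Sema4b, Sema4c, Sema4f, Sema4g, Sema6c, Sema3f and Sema3g had 2 to 7 regions.

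Of the receptors, Plxna2 had 16 regions, 3 of them called everywhere, and Plxna4 15, of which 1 was. Plxna1 and Plxna3 had 3 and 1 regions with the promoter in all libraries, and Plxnd1, the receptor for Sema3e, had 6 regions with a promoter at a percentile of 89.5. Plxnb1, Plxnb2 and Plxnc1 had 4, 5 and 5 regions, with the promoter of Plxnc1 in 14 libraries, and Plxnb3 was the only member without a region. Nrp1, the co-receptor of secreted semaphorins, had 6 regions with the promoter in 7 libraries, and Nrp2 8 with the promoter in all.

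The 3 Slits had 24 regions with no promoter called in every library. Slit1, a repellent made by ganglion cells, had its promoter called in 5 libraries, but 5 of its 12 regions, all in introns between 46063 and 96474 bp from the start, were called in all 18. Slit2 had 4 regions and its promoter in 16 libraries, and Slit3 had 8 regions of which none lay at the promoter and none was called in all libraries. The 4 Robo receptors had 13 regions, the sparsest family at 0.978 per 100 kb, with Robo1 at 3 regions, Robo2 at 6, Robo3 at 3 and Robo4, the endothelial member, at 1. The promoters of Robo2 and Robo3 were called in every library and that of Robo1 in 13.

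Netrins and their Unc5 receptors were unlike each other. No netrin promoter was called in all 18 libraries (Ntn1 in 1, Ntn4 in 13, Ntn5 in 12, Ntn3 in none), while those of Unc5a, Unc5b, Unc5c and Unc5d all were. The receptors had 33 regions in 4 genes, and Unc5a, with 9, had an intron region 6805 bp from the start at a percentile of 87.8, above its promoter at 78.2. Unc50 and Unc5cl had 1 and 2 regions, each called in all 18 libraries.

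**Figure D3:**
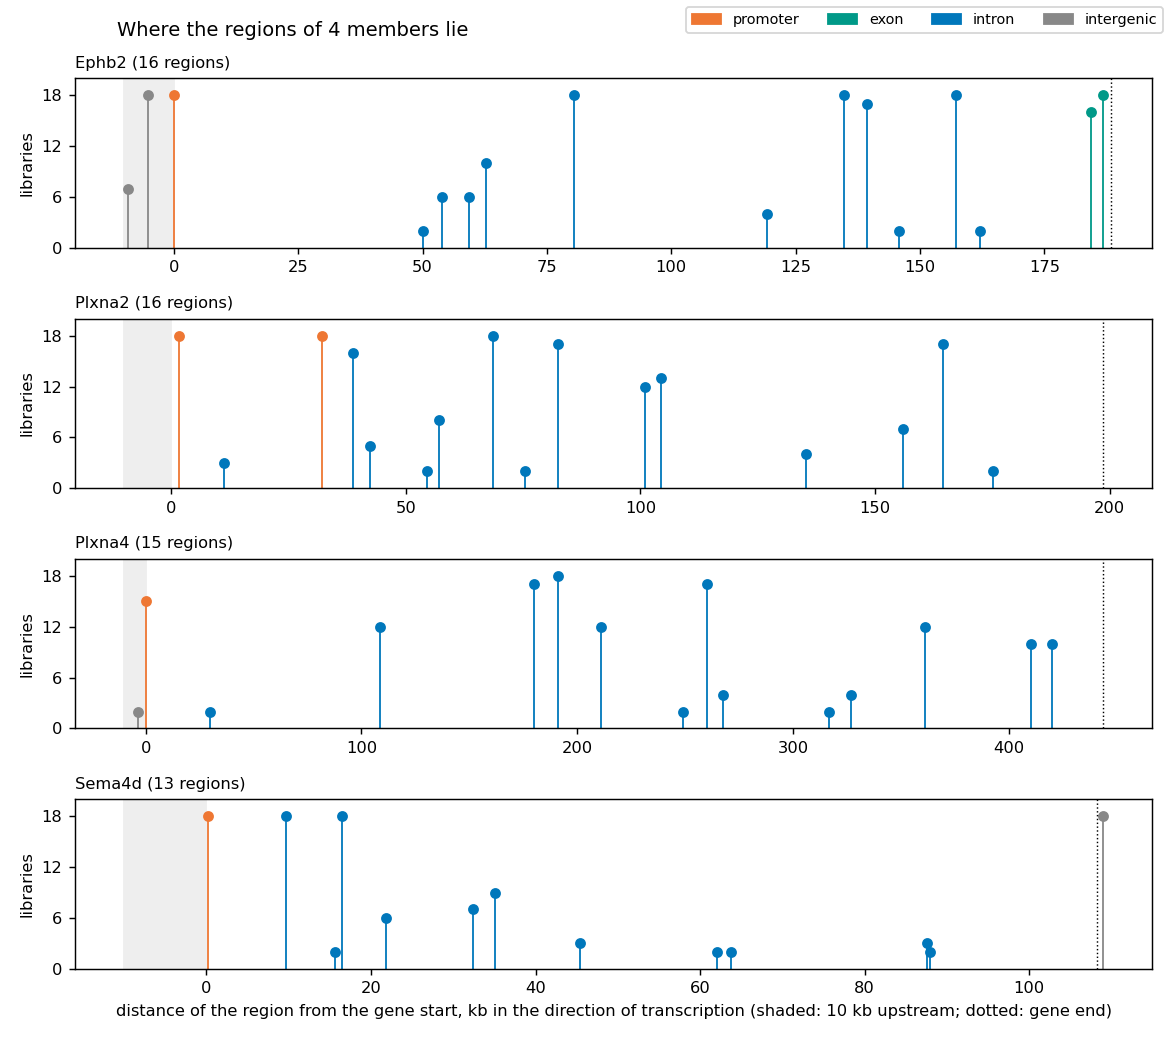
Regions of Ephb2, Plxna2, Plxna4 and Sema4d by distance from the gene start (kb, horizontal axis) and number of libraries of 18 that called them (vertical axis), coloured by class. The promoters of 3 of the 4 genes reach 18 libraries and that of Plxna4 reaches 15, with other regions spread through the introns at 2 to 18.

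The fewest member regions, 145, were called in 18mo IOP replicate 3 and the most, 277, in 3mo contralateral replicate 2, which are also the libraries with the fewest and the most peaks. At 3mo the means of the groups were 211 ± 57.2 member regions for contralateral, 210.0 ± 9.0 for IOP and 209 ± 43.3 for untreated libraries, and at 18mo they were 240 ± 17.6, 187 ± 36.4 and 179 ± 1.0 (SD, n = 3 each). The 18mo untreated libraries called 50.6% to 51.1% of member regions and 59.4% to 62.7% of all regions, and no other library had so wide a gap between these shares. Of all peaks in a list, 0.368% to 0.393% lay in member windows in the 18mo untreated libraries and 0.412% or more in each of the other 15. These shares were not tested.

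**Figure D4:**
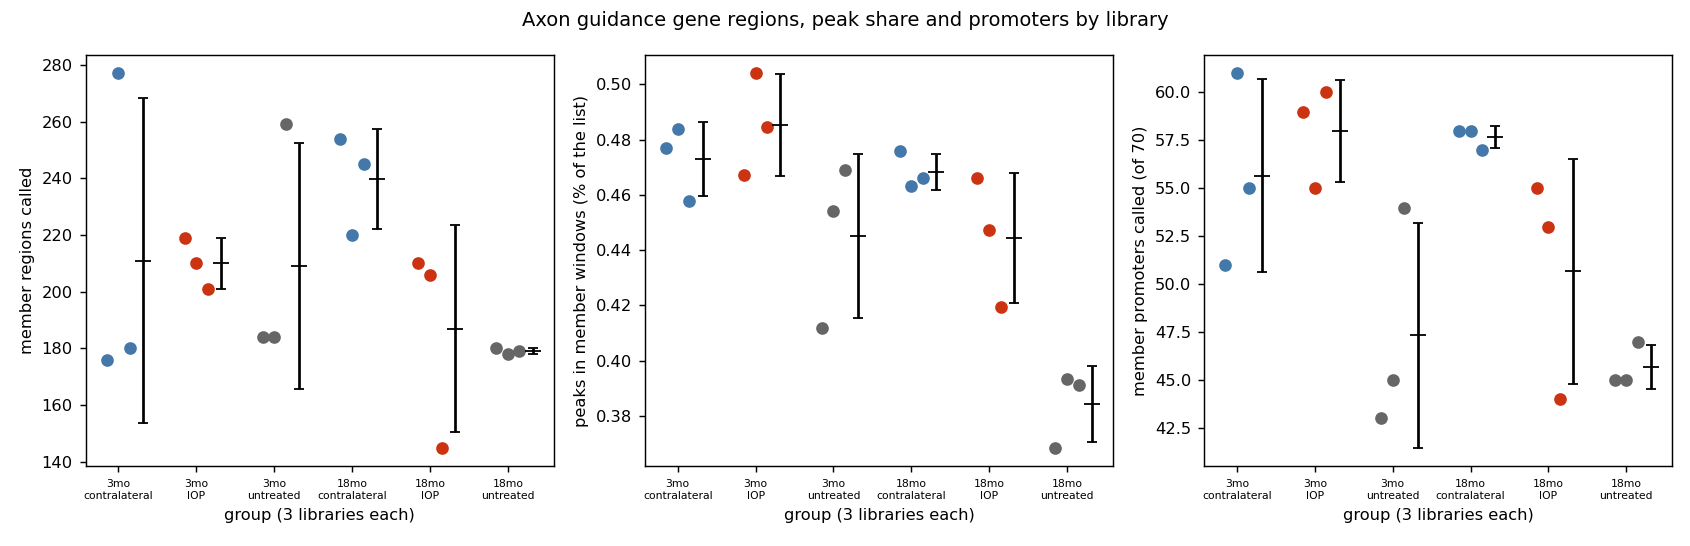
Member regions called, share of the list's peaks in member windows (%), and member promoters called, with 1 point per library (blue contralateral, red IOP, grey untreated) and the mean ± SD of each group of 3 in black. The 18mo untreated points lie at 178 to 180 regions and below every other library in peak share.

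The age comparison set the 6 control libraries of 18mo (contralateral and untreated) against those of 3mo. Of the 57 member regions where the exact p-value could fall under 0.05, none was called more often at 18mo (3.19% of all regions so tested were) and 1 was called more often at 3mo (0.385%), by Fisher's exact test (two-sided) before adjustment. The region lies in an intron of Sema5a, 193002 bp from the start. It was called in 2 contralateral and 3 untreated libraries at 3mo, in 1 IOP library at 3mo and in no library at 18mo (exact p = 0.0152, adjusted p = 0.424). No region of the genome passed an adjusted p of 0.05, the smallest being 0.345.

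Counted per gene as the number of its regions called, the ages were compared with an exact permutation test over all arrangements of the 12 libraries, in 60 members. Ntn1, the attractant of the optic disc, was the 1 member called more often at 18mo (2.36% of all genes tested), with 1, 0 and 1 regions in 3mo contralateral and 0, 0 and 1 in 3mo untreated libraries, against 1, 1 and 2 and then 2, 2 and 1 at 18mo. The mean rose by 1.00 region (exact permutation p = 0.0433). Robo2, a Slit receptor of ganglion cells, was the 1 member called more often at 3mo (0.226% of all genes), with 4, 3 and 3 regions in 3mo contralateral and 4, 2 and 5 in 3mo untreated libraries, against 2, 2 and 2 and 3, 2 and 2 at 18mo. The mean fell by 1.33 regions (exact permutation p = 0.0411). The ages overlap in both genes, and after adjustment over all genes every p-value was 1. Tested within kind of control, neither gene passed before adjustment. The median difference was 0 in members and 0.167 regions in all genes tested.

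Pressure was tested over both ages together, with the 6 IOP libraries set against the 6 contralateral libraries within age. Of 30 member regions that could reach p under 0.05, none was called more often after IOP (1.62% of all regions so tested) and 2 were called less often (3.43%), both in introns of Sema4d. The region 21802 bp from the start was called in 3 of 3 contralateral and 0 of 3 IOP libraries at 3mo and in 2 and 0 at 18mo. The region 32368 bp from the start was called in 2 and 0 at 3mo and in 3 and 0 at 18mo. No IOP library called either of them (exact conditional p = 0.02 and adjusted p = 0.397 for each). Where only the 36011 strongest peaks of each list were kept, so that lists were equally long, neither passed.

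Per gene, none of 59 members was called more often after IOP (0.188% of all genes tested) and 3 were called less often (1.45%), by exact permutation within age over 400 arrangements. At 18mo, IOP libraries called 56.5% ± 8.66 of all regions and contralateral libraries 70.3% ± 4.27 (SD, n = 3 each). Sema4d had 6, 10 and 5 regions in 3mo contralateral and 7, 4 and 5 in 3mo IOP libraries, which overlap. At 18mo it had 8, 7 and 8 against 5, 5 and 4, which do not. How many of all genes had no overlap at 18mo was not counted, so this is not known to be particular to Sema4d. Its mean difference within age was -2.33 regions (exact permutation p = 0.04). Sema6a had 3, 7 and 5 contralateral and 4, 4 and 4 IOP regions at 3mo, and 6, 6 and 6 against 3, 3 and 2 at 18mo, a difference of -2.17 (exact permutation p = 0.035). Epha6 had 3, 4 and 2 against 2, 2 and 2 at 3mo, and 3, 2 and 2 against 1, 1 and 0 at 18mo, a difference of -1.33 (exact permutation p = 0.02). All adjusted p-values were 1, and with equally long lists none of the 3 genes passed before adjustment. The median difference was -0.333 regions in members and -0.167 in all genes tested. IOP lists at 18mo were shorter, with 44474 ± 7329 peaks against 56406 ± 4856 in contralateral lists (SD, n = 3 each).

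At a single age, 3 libraries against 3 cannot go below an exact p of 0.1, so regions called in all libraries of one group and none of the other were counted. At 3mo, 1 of the 40 member regions called in 3 of these 6 libraries was gained after IOP (2.91% of all such regions) and 1 was lost (3.22%). The gained region lies 542583 bp into Slit3 and was called in 0 of 3 contralateral and 3 of 3 IOP libraries at 3mo, and in 2 and 3 at 18mo. The lost region is the Sema4d region at 21802 bp. Without 3mo contralateral replicate 2, the list with most peaks, 8 member regions were gained and 2 lost. With a library left out the rule is looser, so such counts can only stay or rise.

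At 18mo, none of 23 member regions was gained (2.83%) and 8 were lost (26.4% of all such regions, 34.8% of members). The lost regions lay at Efna3, Epha1, Nrp1, Nrp2, Robo3, Sema4d, Sema6a and Slit3, all outside promoters. That of Epha1, upstream of the gene in an intron of an antisense gene, was called in all 15 libraries other than the 3 of 18mo IOP, in the 18mo contralateral lists at percentiles of up to 53.0 and in the other 12 at 11.2 to 65.4. That of Nrp1, 4828 bp into the gene, was called in 3 of 3 IOP libraries at 3mo. With equally long lists (the 36011 strongest peaks of each), 2 member regions were lost and 1 was gained. Leaving out 1 of the 6 libraries loosens this rule, so the count cannot fall below 8, and it gave 10 to 18 lost. The share over all regions under the looser rule was not computed.

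Contralateral and untreated controls were compared within age in the same way. Of 36 member regions, 2 were called more often in contralateral libraries (8.83% of all regions tested) and 3 in untreated libraries (9.36%). The Plxna4 region, 210867 bp from the start, was called in 3 contralateral and 0 untreated libraries at 3mo and in 3 and 1 at 18mo. A Sema6a region 2426 bp from its start had 3 and 1 calls at 3mo and 3 and 0 at 18mo (exact conditional p = 0.02 each). In the other direction, an Efna5 intron region 143734 bp from the start was called in 0 of 6 contralateral, 0 of 6 IOP and 6 of 6 untreated libraries (exact conditional p = 0.005, the smallest this design allows). Its peaks stood at 8.09, 12.6 and 10.2 fold over background in the 3mo and 9.13, 10.0 and 10.3 fold in the 18mo untreated lists.

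The Sema3f region, 21907 bp from the start, had 0 contralateral and 3 untreated calls at 3mo and 1 and 3 at 18mo, and the Sema7a region, 4695 bp from the start, had 0 and 2 at 3mo and 0 and 3 at 18mo (exact conditional p = 0.02 each). The adjusted p was 0.110 for all 5 regions, the smallest in the genome. At a stricter −log10 q of 3 no member region was called more often in contralateral libraries, and with equally long lists 8 were, beside 5 in untreated libraries. The shares over all regions were not computed under these alternatives, so these counts cannot be set against the genome. The 3 regions called more often in untreated libraries were 141, 160 and 104 bp wide. The Sema7a peaks were 79 to 99 bp wide, shorter than any peak listed in a contralateral or IOP library. Of the member regions, 9 (2.56%) were called in untreated libraries only, with a median width of 126 bp, beside 3.76% of all regions with a median of 133 bp. Another 51 (14.5%) were called in contralateral and IOP libraries only, with a median of 268 bp, beside 13.7% of all regions with a median of 269 bp.

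**Figure D5:**
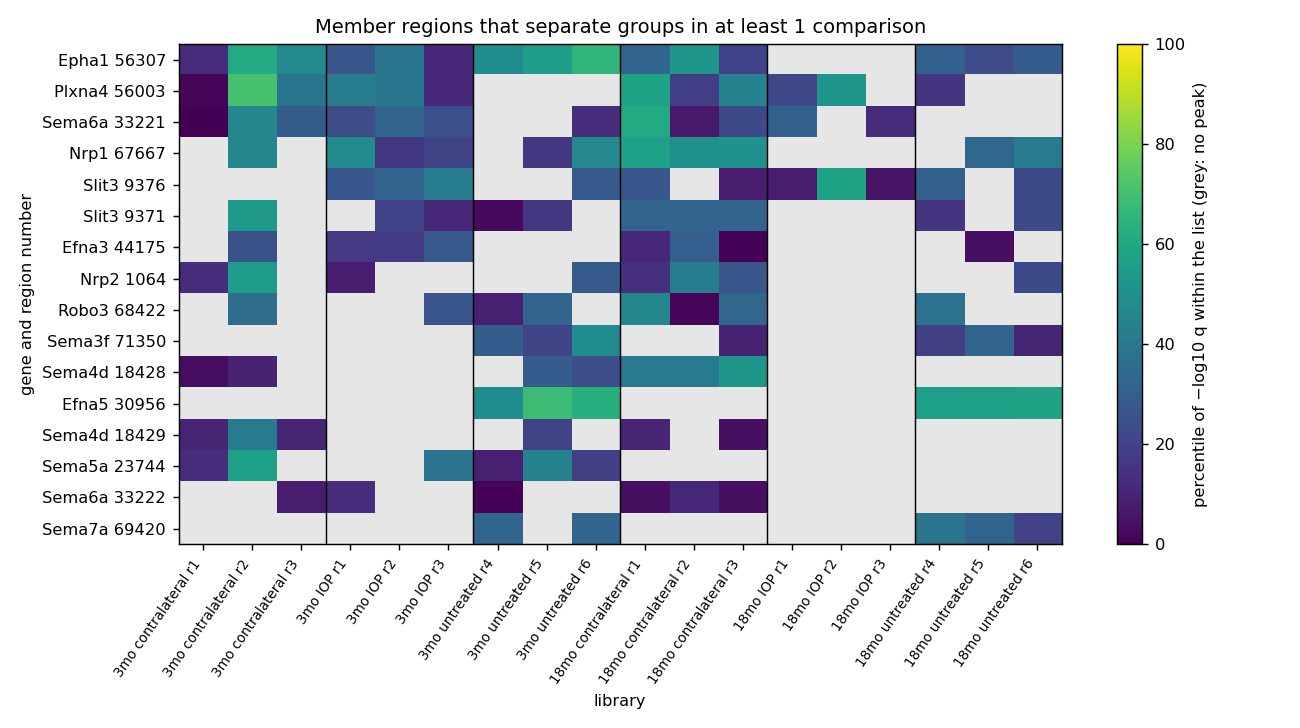
The 16 member regions that separated groups in a comparison (rows, gene and serial number) in each of the 18 libraries (columns, r marks the replicate), shaded by the percentile of the peak's −log10 q-value within its list, with grey where no peak was called. The 18mo IOP columns are grey except at Plxna4, Sema6a and Slit3, and the Efna5 row is coloured in the 6 untreated columns alone.

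Per gene, 2 of 60 members were called more often in contralateral libraries (2.52% of all genes tested) and none in untreated libraries (2.16%). Efna3 had 2, 4 and 3 contralateral and 2, 2 and 2 untreated regions at 3mo, and 4, 4 and 4 against 2, 3 and 3 at 18mo, a difference of 1.17 regions (exact permutation p = 0.02). Epha1 had 2, 2 and 3 against 2, 1 and 2 at 3mo, and 2, 2 and 3 against 1, 1 and 1 at 18mo, a difference of 1.00 (exact permutation p = 0.03). The smallest adjusted p was 0.646. The median difference was 0.417 regions in members and 0.167 in all genes. This comparison depended on how a call was defined: when a library's peaks had to cover 50% of a region, 42 of 64 member regions tested were called more often in contralateral libraries (65.6%, beside 60.8% of all regions tested) and 3 in untreated libraries (4.69% beside 3.88%) before adjustment. Under that definition 45 member regions passed an adjusted exact p of 0.05, a share of 70.3% beside 64.6% of all regions tested. Per gene, 33 of 67 members tested were called more often in contralateral libraries (49.3%, beside 33.6% of all genes tested) and none in untreated libraries (0.387% of all genes), and 12 passed an adjusted exact permutation p of 0.05 (17.9% beside 13.3%). Untreated peaks were narrower, as given above.

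A list of 58 other genes of the pathway, among them ligands, receptors, adhesion molecules and intracellular effectors, had 475 regions. Of these regions 132 were called in all 18 libraries, and 41 of the genes had the promoter called in all. In the whole series 33.6% of regions and 51.8% of gene promoters were called in all libraries. By the exact permutation test before adjustment, 2 of 54 tested were called more often at 18mo (Neo1 and Rgmb) and 2 at 3mo (Nrcam and Dscam). Over all genes tested these shares were 2.36% and 0.226%. Nrcam, an adhesion molecule of growing axons, fell by 3.67 regions (exact permutation p = 0.00866) and Dscam, which spaces retinal neurons, by 8.67 (exact permutation p = 0.026). Vav2 was the 1 of 53 tested that was called less often after IOP (1.45% of all genes tested), with a difference of -2.17 regions (exact permutation p = 0.035). Dcc, the netrin-1 receptor, with Dpysl3 and Rnd1, was called more often in untreated than in contralateral libraries, with differences of -2.50, -5.00 and -0.833 regions. These were 3 of 54 tested, beside 2.16% of all genes tested. None of the 58 passed after adjustment over all genes.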

How the data were processed

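The deposited files were 18 narrowPeak lists, 1 per library. The authors called peaks per library with MACS2 at a q-value of 0.05. The deposited values per peak are a score, a fold (ratio) over the local background, and the −log10 of p and q at the summit. They were used to rank peaks within a list only. The submitters' processing notes also name STAR 2.7.8a, HOMER, edgeR and bedtools 2.29.2 with no role. Trimming, duplicate removal and read shifting were not given in the sources used here. The lists hold no reads, so the study's count model was not applied and depth per region is unknown.

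Peaks overlapping by at least 1 bp were merged into 99792 regions, and 73567 with peaks in at least 2 libraries were kept. Regions and genes were compared with exact tests (two-sided) and Benjamini-Hochberg adjustment. The adjustment ran over all regions able to pass 0.05, and over all protein-coding genes whose count varied among the libraries compared. The smallest p-values were 0.00216 for age and 0.005 within age. The members, gene lists and motifs were chosen with earlier results of these data known. Named genes were those with a region that separated groups (up to 12 per direction), the 10 with most regions, those whose promoter was not called everywhere, and a list of genes known in retinal wiring. No label says which animals gave the libraries, so p-values measure the spread between these libraries. The region test was checked on simulated calls, and the gene test on simulated counts with changes larger than those reported here. The simulated libraries did not differ in list length or peak width, so the check does not cover such differences. Alternatives were a −log10 q of 3, 50% coverage, equal list lengths, no minimum of libraries, gene bodies only, strata, a replicate block and leaving out each library. Analyses used Python 3.11.15, numpy 2.4.6, pandas 2.3.3, scipy 1.17.1 and matplotlib 3.10.9. One region's sequence and the level of 1 marker gene are not reported here.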

Additional observations from a re-analysis of the deposited data

How the results depend on the processing

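The limits are those of peak lists: a call is yes or no, list lengths differ, and most counts of members are small, so a change of 1 moves a count. Counts are members at an unadjusted exact p under 0.05 unless stated. Shares over all features were computed for the main setting and, for the comparison of controls, for 50% coverage. The other counts stand without such shares. With 50% coverage, age gave 1 region more often at 18mo, 0 at 3mo and 0 genes either way, IOP at both ages gave 0 regions and 1 gene less often, contralateral against untreated controls gave 42 regions and 33 genes more often in contralateral with 45 regions and 12 genes past adjustment, and exclusive regions were 0 gained and 0 lost at 3mo and 1 gained at 18mo. With equal list lengths the age counts of genes were 0 at 18mo and 2 at 3mo, those for IOP 1 region more and 0 regions and 0 genes less often, those for controls 8 and 5 regions and 10 and 2 genes (contralateral, untreated), and exclusive regions 0 and 0 at 3mo and 1 gained and 2 lost at 18mo. With a −log10 q of 3, 1 region and 1 gene were called less often after IOP, and 0 regions and 0 genes more often in contralateral libraries. Ntn1 no longer passed with gene bodies only or with no minimum of libraries (0 genes at 18mo in each), and the latter gave 1 gene more often in contralateral libraries. Stratified by kind of control, age gave 0 genes either way. Strata of age and shortest-peak class, chosen after seeing the data, gave 1 region more often after IOP. The causes of these changes were not tested, beyond the fewer peaks and the wider overlap that 2 of the alternatives impose.

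Same-numbered libraries did not deviate together (correlations of -0.139 to 0.098). Between IOP and contralateral libraries, which could be eyes of the same mouse, they ran from -0.0676 to 0.0980. These values cannot exclude that same-numbered libraries came from the same mouse. The main tests did not pair by number. A replicate block gave 0 regions and 0 genes for age at 3mo and 0 genes for age at 18mo. It gave 0 regions and 0 genes less often after IOP. It leaves so few arrangements that all 6 same-numbered pairs had to differ in the same direction for a pass. The Sema5a and Sema4d regions named above each had a pair without a difference. So did the gene counts of Ntn1, Robo2, Sema4d and Epha6, and Sema6a had a pair in the opposite direction. None of them could pass, so these zeros do not test those results.

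Leaving out each library in turn, regions ranged from 0 to 1 at 18mo and 1 to 4 at 3mo for age (4 without 3mo untreated replicate 5), 0 to 1 more and 2 to 4 less often after IOP (4 without 3mo contralateral replicate 3), and 2 to 8 in contralateral (8 without 3mo untreated replicate 6) and 3 to 3 in untreated libraries. Genes ranged from 0 to 1 in both directions for age, 0 to 0 more and 1 to 6 less often after IOP (1 without 3mo contralateral replicate 2, and 6 without either other 3mo contralateral library), and 1 to 7 in contralateral (7 without 3mo untreated replicate 6) and 0 to 1 in untreated libraries. Exclusive regions ranged from 1 to 8 gained and 1 to 6 lost at 3mo, and 0 to 3 gained and 10 to 18 lost at 18mo. The counts of exclusive regions could only stay or rise, since leaving out a library loosens their rule. Adjusted calls were 0 to 0 throughout.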
